A study of Caenorhabditis elegans with 6 samples.

Results

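The genes described here are 9 members of the *spp* family, which encodes saposin-like proteins: *spp-1* to *spp-8*, taken by their run of consecutive WormBase identifiers, and *spp-18*, taken by its identifier in the study's list of differentially expressed genes. *spp-8* is on that list too. The list was made on these same arrays, so the changes of *spp-8* and *spp-18* are no independent evidence of their direction. The names of *spp-1*, *spp-5*, *spp-6* and *spp-7* rest on the numbering of the identifiers alone. The genes are 9 of the 17397 genes with a value on the arrays and 9 of the 30 *spp* genes that the RefSeq annotation of WBcel235 lists. The study compared wild-type worms of the strain N2 (wt) with worms that carry the reduction-of-function allele *tm3163* of *dcap-1* (*dcap-1(rf)*), the worm DCP1 subunit of the mRNA decapping enzyme. Each strain was sampled in 3 populations of 200 to 300 whole worms as adults aged 9 days. Both strains were kept at 20 °C on *E. coli* OP50, in the methods a lawn killed by UV light, and both received FUDR (10 µg/ml), a drug that prevents progeny. The mutant is 1 outcrossed line, and the worms of a population were pooled in 1 RNA sample, so no tissue was separated.

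Saposin-like proteins share a small compact fold that binds membrane lipids, held together by disulfide bonds, with the amoebapores of amoebae and with granulysin and NK-lysin of mammalian lymphocytes. In *C. elegans* several of them, called caenopores, are made in the intestine, where the worm digests the bacteria it eats, and can open pores in bacterial membranes. SPP-1 and SPP-5 are the best known of these, and *spp-1* is also known as a gene that is more active in long-lived insulin receptor mutants through the transcription factor DAF-16. The intestine is a main site of worm innate immunity, where p38 MAPK signalling and GATA factors such as ELT-2 act on many secreted effectors.

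The values are log2 expression values, 1 per gene and array, which the authors made with RMA, a method that gives all arrays the same distribution of probe signals. A difference of 1 is a 2-fold difference. Because the arrays are of whole worms, fewer intestinal cells and less RNA per cell cannot be told apart. Values of different genes come from different probes and are not set against each other. The strains were compared with limma over all 13047 genes left after the 25% with the lowest averages were removed, and a gene is called at an adjusted p under 0.05 (Benjamini-Hochberg over all genes tested). The number of arrays, 3 per strain, limits the precision. The median values of the arrays lay between 2.18 and 2.24, and the median SD between replicates was 0.10 in each strain. *dcap-1* itself had values of 5.44, 5.30 and 5.26 in wt and 4.50, 4.52 and 4.65 in *dcap-1(rf)*, so the mutant arrays were all lower (log2 fold change -0.77, adjusted p = 0.00469, limma).

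For *spp-18*, the member whose call turned on the processing, the study lists a primer pair. The oligos are shown 5′ to 3′ as listed, because they are named for *spp-18*, which the annotation places on chromosome IV. They were not aligned, and no qRT-PCR data were analysed here.
spp-18 forward primer: ccacctgcgaaatctgtcttg
spp-18 reverse primer: gtatcttcaatgacggcatgagc

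Of the 9 genes, 8 passed the filter on low averages and 1 of them, *spp-8*, was called, in the upward direction, where 1.62% of all genes tested were called in either direction and 1.46% upward. None was called downward, where 0.161% of all genes tested were. *spp-8* (WBGene00004993_at), a saposin-like gene, lies on chromosome IV from 8481664 to 8483621 of WBcel235. Its values were 6.44, 6.41 and 6.39 in wt and 7.42, 7.86 and 7.96 in *dcap-1(rf)*. The wt arrays lay within a narrow band and every mutant array was above them, with mutant replicate 1 the lowest of the mutant arrays. The means were 6.41 ± 0.02 for wt and 7.75 ± 0.29 for the mutant (SD, n = 3 arrays per strain), so that *spp-8* rose 2.52-fold, a log2 fold change of 1.33 with a standard error of 0.14 and a 95% interval from 1.01 to 1.65 (adjusted p = 0.00418, limma). It ranked 51 by p-value among the genes tested. Its call is not independent of the study's list of differentially expressed genes, which holds *spp-8* and was made on these arrays. The call held whichever of the 6 arrays was omitted, with a log2 fold change between 1.22 and 1.50 and an adjusted p from limma between 0.00171 and 0.0387.

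**Figure D1:**
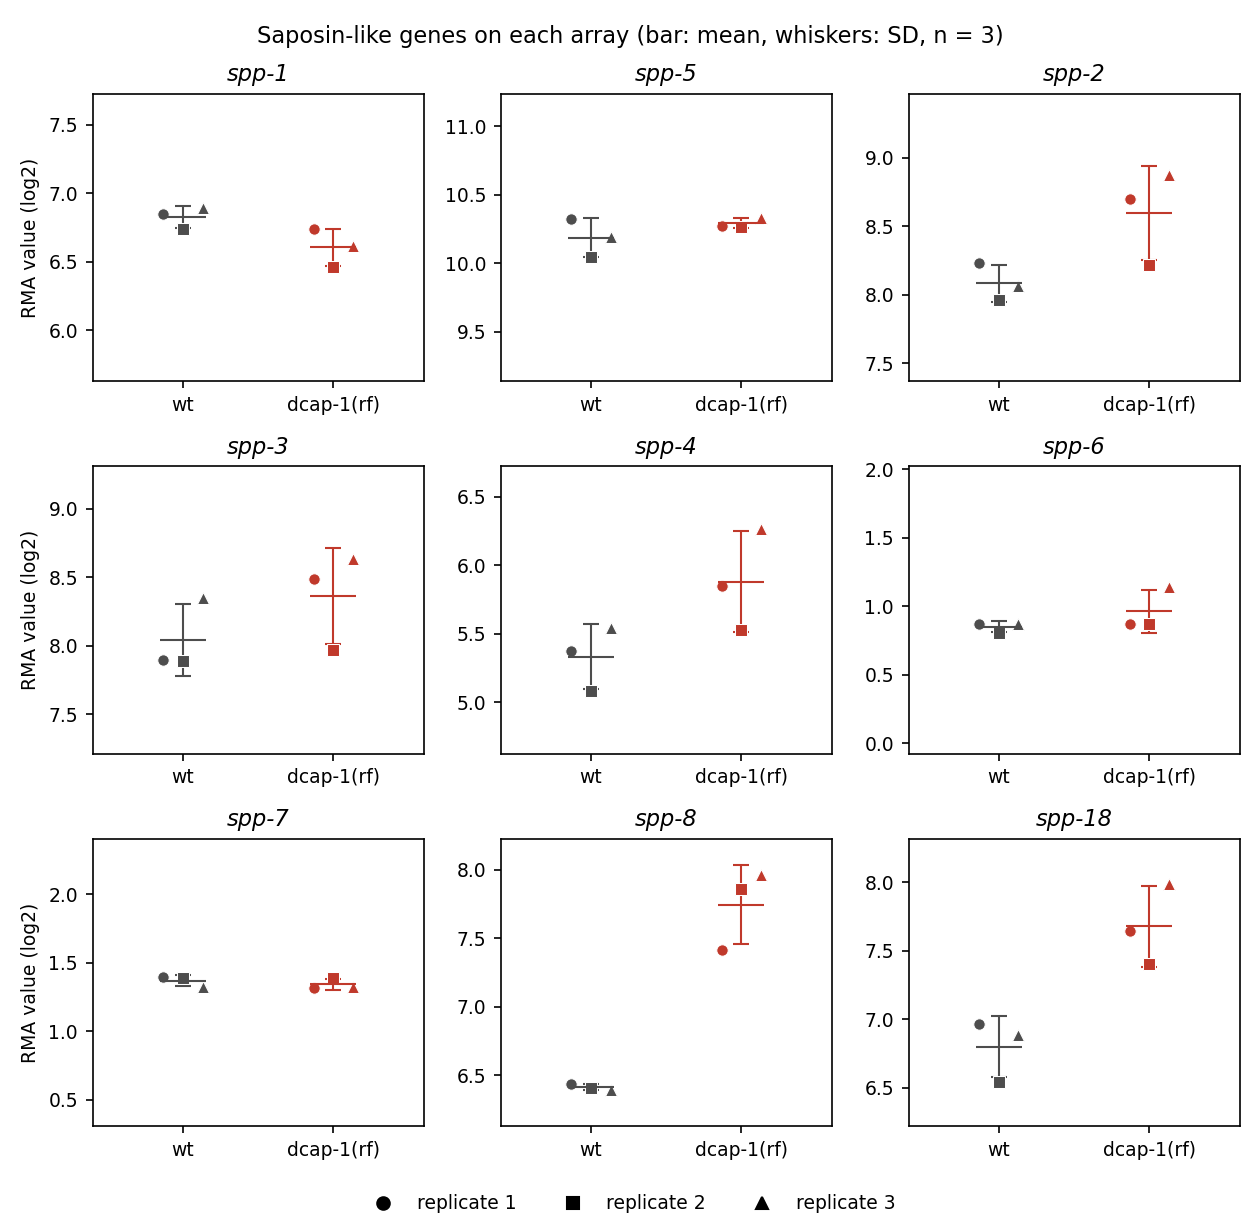
RMA values (log2, vertical axis) of the 9 saposin-like genes on each of the 3 wt arrays (grey) and the 3 *dcap-1(rf)* arrays (red); the bar is the mean, the whiskers the SD, and every panel spans the same range of log2 units. Only *spp-8* and *spp-18* have all mutant arrays above all wt arrays.

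*spp-18* lies on chromosome IV from 9593712 to 9594413 and belongs to the same protein family. Its values were 6.96, 6.54 and 6.89 in wt and 7.64, 7.40 and 7.99 in *dcap-1(rf)*. The groups did not overlap, with mutant replicate 2 and wt replicate 1 the nearest to each other. The means were 6.80 ± 0.22 and 7.68 ± 0.30 (SD, n = 3 per strain), which is a difference of 0.88 (standard error 0.17, 95% interval from 0.49 to 1.27), or 1.84-fold, and the gene just missed the threshold (adjusted p = 0.0540, limma). In the study *spp-18* is on the list of differentially expressed genes. The study's methods name surrogate variable analysis, and the model here had no such term. Fit and list thus differ for *spp-18*. It was called in 7 of the 9 alternatives that kept all arrays, where the adjusted p from limma lay between 0.0150 and 0.0619, and in 0 of the 6 fits with an array left out, where it lay between 0.0630 and 0.190; its log2 fold change stayed between 0.72 and 1.02 throughout those 6. The 7 include the fits with added terms taken from the residuals of the strain fit itself, which are no independent support. Among the 8 members tested, *spp-8* and *spp-18* were the 2 whose groups did not overlap, where 18.6% of all genes tested had groups that did not overlap and 8.93% had all mutant arrays above.

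**Figure D2:**
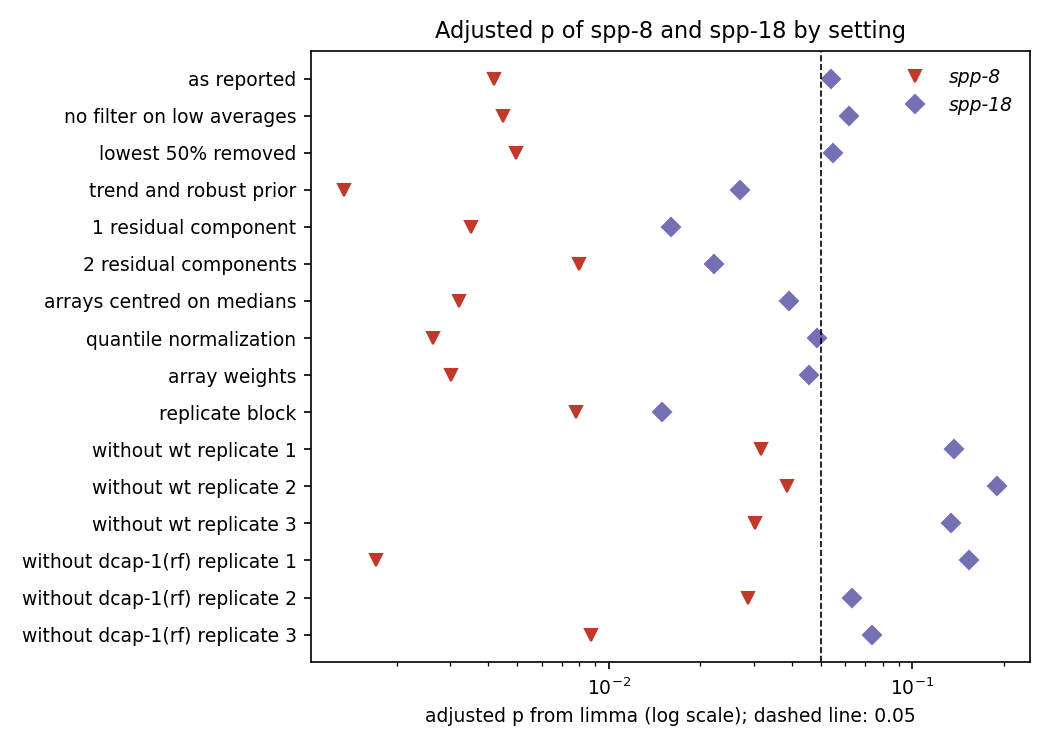
Adjusted p from limma (horizontal axis, log scale) of *spp-8* and *spp-18* in the reported fit and in each alternative; the dashed line marks the threshold of 0.05. *spp-8* stays left of the line in every setting shown, and *spp-18*, at 0.0540 as reported, crosses it.

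*spp-1* and *spp-5*, the antibacterial pore formers of the gut named above, were not called. *spp-1* (WBGene00004986_at), on chromosome III from 10355098 to 10355668, had values of 6.85, 6.74 and 6.89 in wt and 6.74, 6.46 and 6.61 in *dcap-1(rf)*. The mutant values were the lower ones, except that mutant replicate 1 met wt replicate 2 at the same value to the last decimal deposited. The means were 6.83 ± 0.08 and 6.60 ± 0.14 (SD, n = 3), and the log2 fold change was -0.22 (standard error 0.09, 95% interval from -0.44 to -0.01, adjusted p = 0.351, limma), the one member of the tested 8 besides *spp-7* with a mean below wt. *spp-5* (WBGene00004990_at), on chromosome X from 7319937 to 7320354, had values of 10.32, 10.04 and 10.19 in wt and 10.27, 10.26 and 10.33 in *dcap-1(rf)*. These groups overlapped, with the mutant arrays inside or just above the range of wt, at means of 10.19 ± 0.14 and 10.29 ± 0.04 (SD, n = 3). The log2 fold change of *spp-5* was 0.10 (standard error 0.09, adjusted p = 0.643, limma), and its 95% interval, from -0.10 to 0.31, leaves out a rise of the size measured for *spp-8* or *spp-18*.

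*spp-5* is the last of 5 members that follow each other on chromosome X, *spp-3*, *spp-2*, *spp-6*, *spp-4* and *spp-5*, in 5386 bases from 7314969 to 7320354 with no other protein-coding gene between them in the annotation. *spp-2* (WBGene00004987_at), from 7315995 to 7316818, had values of 8.23, 7.96 and 8.06 in wt and 8.69, 8.21 and 8.88 in *dcap-1(rf)*. Mutant replicates 1 and 3 were above every wt array, and mutant replicate 2 was just below wt replicate 1. The means were 8.08 ± 0.14 and 8.59 ± 0.34 (SD, n = 3), a 1.43-fold difference. The log2 fold change was 0.51 (standard error 0.17, 95% interval from 0.12 to 0.90), with an unadjusted p of 0.0171 and an adjusted p of 0.240 from limma. *spp-4* (WBGene00004989_at), from 7318239 to 7318756, had values of 5.38, 5.08 and 5.54 in wt and 5.85, 5.53 and 6.27 in *dcap-1(rf)*. Again mutant replicates 1 and 3 were above all wt arrays and mutant replicate 2 was not, at means of 5.33 ± 0.24 and 5.88 ± 0.37 (SD, n = 3), a 1.46-fold difference. Its log2 fold change was 0.55 (standard error 0.20, 95% interval from 0.09 to 1.00), with an unadjusted p of 0.0247 and an adjusted p of 0.278 from limma.

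*spp-3* (WBGene00004988_at), from 7314969 to 7315353, had values of 7.89, 7.89 and 8.35 in wt and 8.49, 7.97 and 8.63 in *dcap-1(rf)*. Here wt replicate 3 reached into the mutant range and mutant replicate 2 into the wt range, and the means were 8.04 ± 0.26 and 8.36 ± 0.35 (SD, n = 3). The log2 fold change was 0.32 (standard error 0.19, 95% interval from -0.13 to 0.77, adjusted p = 0.516, limma). *spp-6* (WBGene00004991_at), from 7317341 to 7317712, had values of 0.87, 0.81 and 0.87 in wt and 0.87, 0.87 and 1.14 in *dcap-1(rf)*. Its 4 values of 0.87 were identical to the last decimal deposited, and its average stood at percentile 8.42 of all genes, below the filter, so it was not tested. No detection calls were used here, so it is not known whether its values lie above background. *spp-2*, *spp-3* and *spp-4* thus had log2 fold changes between 0.32 and 0.55, with 95% intervals that lay between -0.13 and 1.00, while *spp-5*, next to *spp-4*, had 0.10. Whether signal is shared between the paralogs on the array was not tested, and whether these neighbours differ from each other in their change was not tested either.

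**Figure D3:**
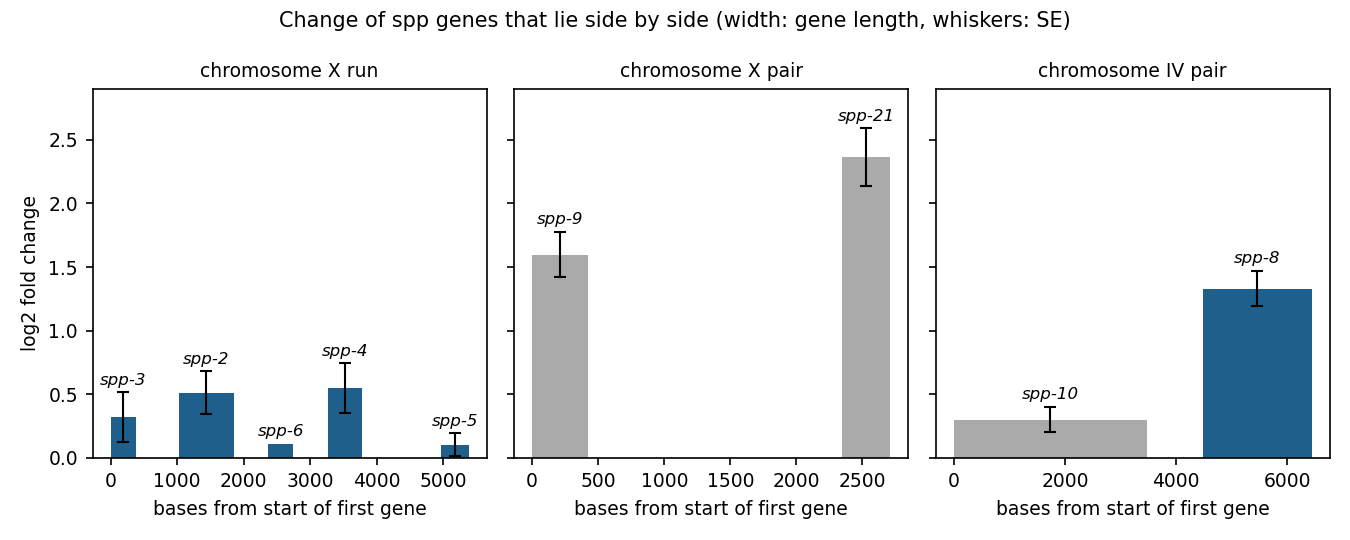
Log2 fold change (vertical axis) of *spp* genes that lie next to each other, against distance in bases from the start of the first gene; the width of a bar is the length of the gene, blue bars are the described genes, grey bars other *spp* genes, and whiskers are standard errors (none for *spp-6*, which was not tested). The X run stays between 0.10 and 0.55, while *spp-9* and *spp-21* reach 1.60 and 2.36 and *spp-8* reaches 1.33 beside *spp-10* with 0.30.

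*spp-7* (WBGene00004992_at), on chromosome IV from 5412827 to 5415796, had values of 1.39, 1.39 and 1.32 in wt and 1.31, 1.39 and 1.32 in *dcap-1(rf)*. The groups overlapped through mutant replicate 2, which had the same value as wt replicate 2 to the last decimal, while mutant replicates 1 and 3 lay just below every wt array. The average, 1.36, was just above the filter at 1.33, so the gene was tested near the low end of the scale. Its log2 fold change was -0.03 (standard error 0.07, 95% interval from -0.19 to 0.13, adjusted p = 0.891, limma), and its sign turned with quantile normalization, to 0.01. Identical values were not particular to these members, since 20.8% of all genes tested had a value that recurred on another array.

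Over the 9 genes, 7 had a higher and 2 a lower mean in *dcap-1(rf)*, or 6 and 2 among the 8 tested, where 44.6% of all genes tested had a higher mean, and the median log2 fold change was 0.32, beside -0.02 for all genes tested. At an unadjusted p under 0.05 from limma, 5 of the 8 tested members passed (*spp-1*, *spp-2*, *spp-4*, *spp-8* and *spp-18*), 4 of them with a higher mean, where 13.8% of all genes tested passed and 7.59% passed with a higher mean. *spp-18* came from the study's own list of changed genes, *spp-8* is on it too, and 5 members are neighbours. The counts thus describe these genes and are not a test of them.

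**Figure D4:**
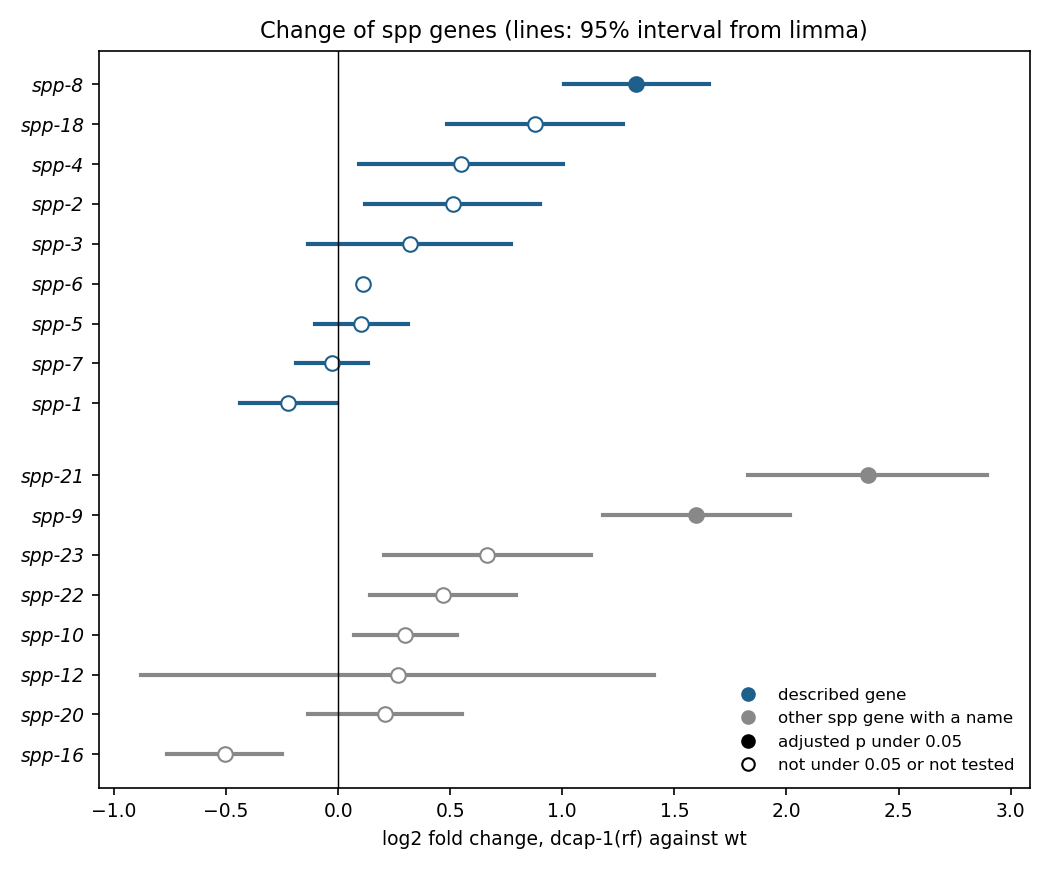
Log2 fold change, *dcap-1(rf)* against wt (horizontal axis), with the 95% interval from limma, for the 9 described genes (blue) and for 8 other *spp* genes that have a name in the tables used (grey); filled points have an adjusted p under 0.05. *spp-8*, *spp-21* and *spp-9* are filled, and *spp-6*, which was not tested, has no interval.

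Several members varied more between replicates than most genes at their level. The residual SD of *spp-2* was 0.26, of *spp-3* 0.31, of *spp-4* 0.31 and of *spp-18* 0.26, where the median over all genes tested was 0.12. Set against genes whose averages lay within 0.5 of their own, these residual SDs stood at percentiles 88.6, 93.4, 95.2 and 94.7. *spp-8* stood at percentile 92.6, nearly all of it from the mutant arrays, and *spp-5* at 87.1. The standard errors of the 8 tested members ran from 0.07 for *spp-7* to 0.20 for *spp-4*.

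The replicates deviated from their group means in a like manner in several of these genes. Mutant replicate 2 stood at -0.38 from the mutant mean for *spp-2*, at -0.39 for *spp-3* and at -0.35 for *spp-4*, and it was also the lowest mutant array for *spp-18* (-0.28). Mutant replicate 3 lay above the mutant mean by 0.28, 0.27 and 0.39 for *spp-2*, *spp-3* and *spp-4* and by 0.31 for *spp-18*. The mutant arrays stood in the order replicate 3, replicate 1, replicate 2 for 5 members (*spp-2*, *spp-3*, *spp-4*, *spp-5* and *spp-18*), an order found in 14.5% of all genes tested. In the same 5 genes wt replicate 2 was the lowest wt array, and both features together were found in 5.69% of all genes tested. Some of these margins were small. Mutant replicates 1 and 2 of *spp-5* had 10.27 and 10.26, and wt replicates 1 and 2 of *spp-3* had 7.893 and 7.890. *spp-8* did not share the order: its lowest mutant array was replicate 1, at -0.33 from the mutant mean, and its wt arrays differed little. This pattern was chosen after the values were seen, and a difference in RNA, worms or handling behind it was not tested.

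**Figure D5:**
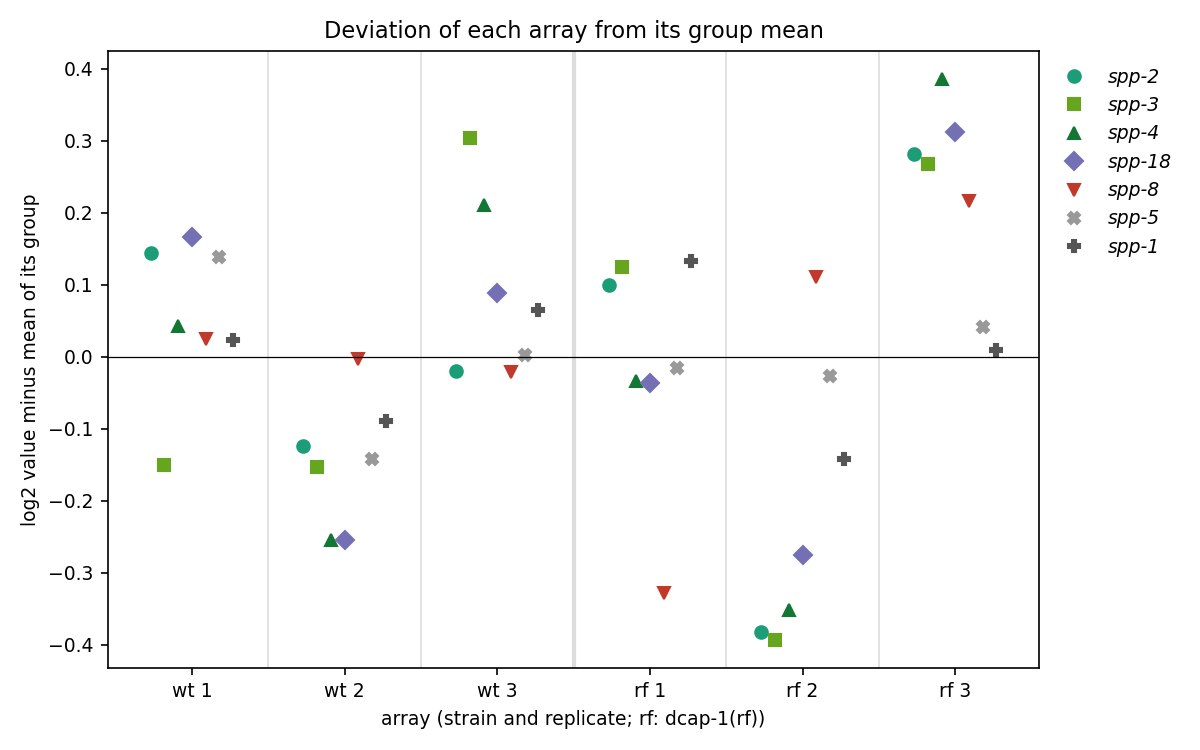
Log2 value minus the mean of its own group (vertical axis) on each array (horizontal axis; rf is *dcap-1(rf)*) for 7 of the described genes; *spp-6* and *spp-7*, at the low end of the scale, are left out. On mutant replicate 2, *spp-2*, *spp-3*, *spp-4* and *spp-18* lie between -0.39 and -0.28, while *spp-8* is above its mean there.

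Leaving out mutant replicate 2 raised the log2 fold change of *spp-2* to 0.70 (adjusted p = 0.0611, limma), of *spp-4* to 0.72 (adjusted p = 0.212, limma) and of *spp-3* to 0.52 (adjusted p = 0.319, limma). Leaving out mutant replicate 3 lowered them to 0.37, 0.35 and 0.19. None of the 3 was called in any of the 6 fits with an array left out or in the 9 alternatives with all arrays. *spp-4* came nearest with the replicate number as a block (adjusted p = 0.0513, limma; the highest of its 9 alternatives with all arrays was 0.306).

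The values closest to those of *spp-8* over the 6 arrays, each gene taken relative to its own wt mean, were those of *Y69E1A.2*, with a root mean square difference of 0.13 on the log2 scale and a log2 fold change of 1.36, followed by *K06A5.2* with 0.14 and 1.32 and *R07E5.15* with 0.15 and 1.20. They were picked as the nearest of all genes tested, by a measure that includes the shift of the mean. Their mutant SDs were 0.09, 0.38 and 0.09, beside 0.29 for *spp-8*. Whether these genes vary together was not tested.

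Outside these 9 genes, 8 further *spp* genes have a name in the tables used. Those tables name genes outside the differentially expressed ones only where the log2 fold change is positive, so that the mostly higher values of the 8 follow from the naming and are no count of the family. *spp-9*, *spp-21* and *spp-16* are on the study's list of differentially expressed genes, made on these arrays, so their calls are no independent evidence. *spp-9*, known from reporter studies as a gene repressed by the TGF-beta ligand DBL-1, had values of 1.97, 2.60 and 1.94 in wt and 3.81, 3.61 and 3.88 in *dcap-1(rf)*, and so was 3.03-fold higher (log2 fold change 1.60 with a standard error of 0.18, adjusted p = 0.00564, limma). *spp-21*, the next protein-coding gene on chromosome X, 1926 bases further on, had 5.24, 4.48 and 5.41 in wt and 7.30, 7.32 and 7.60 in *dcap-1(rf)*, and was 5.15-fold higher (log2 fold change 2.36 with a standard error of 0.23, adjusted p = 0.00288, limma). Both rose, with no overlap between strains, and both stayed called whichever array was omitted, as *spp-8* did. *spp-16*, the one named *spp* gene outside the 9 with a lower mean, had all mutant arrays below wt, at -0.51, but missed the threshold (adjusted p = 0.0819, limma).

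*spp-10* is the first gene of the chromosome IV pair, with 1007 bases between its end and the start of *spp-8* and with *hlh-12* inside its span. It had values of 7.81, 7.85 and 8.11 in wt and 8.24, 8.29 and 8.15 in *dcap-1(rf)*. Its mutant arrays were all above wt, by little, and its log2 fold change was 0.30 (95% interval from 0.07 to 0.53, adjusted p = 0.241, limma), an interval that ends below that of *spp-8*, from 1.01 to 1.65; the difference itself was not tested. *spp-12*, which in the worm acts against *Bacillus thuringiensis* from a pair of pharyngeal neurons, had wt values from 3.41 to 5.35 and mutant values from 4.02 to 5.09, too wide a spread for any reading (standard error 0.49). The remaining 3, *spp-20*, *spp-22* and *spp-23*, had log2 fold changes of 0.21, 0.47 and 0.67 and were not called.

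Other gut and skin effectors give the setting of these values, again named only through the tables just described. A gene outside the study's list of differentially expressed genes has a name only if its log2 fold change is positive. Not every positive change has one, as *spp-5* with 0.10 is not named in those tables. The study's list was made on these arrays. The directions, the calls and the low ends of the ranges below are thus not independent of the naming, and they are given as values. Of 8 named lysozyme genes, which cut bacterial cell walls, 0 were called by limma, where 1.62% of all genes tested were. An unadjusted p under 0.05 from limma was found for 3 of the 8, where 13.8% of all genes tested passed and 7.59% passed with a higher mean. The log2 fold changes of the 8 ran from 0.17 for *lys-8* to 0.88 for *ilys-4*, which had the same adjusted p as *spp-18* (adjusted p = 0.0540, limma). Like *spp-18*, *ilys-4* is on the study's list. Of 19 named genes of other antimicrobial peptide families 10 were called, where 1.62% of all genes tested were, and all of these 10 are named through the study's list. They were *cnc-6* (log2 fold change 2.30), *cnc-4* (1.69), *cnc-2* (1.55) and *cnc-7* (1.28), which encode caenacins, *nlp-31* (1.39), *nlp-27* (1.33), *nlp-29* (1.18) and *nlp-30* (0.83), of which *nlp-29* is induced in the epidermis by fungal infection, *fip-5* (1.37), and *abf-2* (-1.11), a defensin-like peptide. This number was 6 when wt replicate 1 was omitted. Of 16 regulators of gut immunity 7 had a name, from *elt-2*, the gut GATA factor, with 0.20 to *tir-1*, an adaptor upstream of p38 MAPK, with 0.47. Of the 7, 0 were called by limma and 5 had an unadjusted p under 0.05, beside the same 13.8% and 7.59% of all genes tested.

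The cell type markers were named in the same way, so their directions and calls are no independent evidence of a shift. Of 11 intestinal marker genes 5 had a name, and the other 6 were not analysed here. *ifb-2* (0.74), *asp-1* (0.73) and *vha-6* (0.64), all on the study's list, were called, and *act-5* (0.25) and *elt-2* (0.20) were not. These 5 had every mutant array above every wt array, where 18.6% of all genes tested did not overlap and 8.93% had the mutant above. The mean over the 5 markers lay between 5.88 and 6.05 on the wt arrays and between 6.38 and 6.53 on the mutant arrays, and the lowest single value was 3.28. The hypodermal *col-19* (0.62) and the neuronal *snb-1* (0.16) likewise had every mutant array above every wt array and were not called. The 3 body wall muscle markers, from *myo-3* (0.21) to *unc-54* (0.29), had groups that overlapped and were not called, and no pharyngeal or oocyte marker had a name. Of 3 named sperm markers 2 were called, *msp-76* (3.53) and *msp-50* (3.48), which encode major sperm proteins and are also on the study's list, and the mean over the 3 lay between 2.26 and 2.71 in wt and between 4.79 and 5.22 in the mutant. The part of these shifts in the change of *spp-8* and *spp-18* was not tested.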

How the data were processed

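Total RNA of 3 wt and 3 *dcap-1(rf)* populations, 150 ng each, was hybridized to Affymetrix *C. elegans* Genome Arrays. The authors deposited log2 values made with RMA, with the BrainArray ENSG chip description, in R 3.3.0 per the labels; the methods name surrogate variable analysis without saying whether the deposited log2 values carry it. Values were used as deposited. Strain was the only term of the model in limma 3.58.1 (R 4.3.3); the 25% of genes with the lowest averages were removed before empirical Bayes moderation (prior degrees of freedom 3.53), as the methods state, and the fit was tested on simulated data. Python 3.11.15 with pandas 2.3.3, numpy 2.4.6 and matplotlib 3.10.9 served for summaries and drawing.

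The members and gene lists were chosen with earlier results of these data known. Of the members, 5 are named in the study's supplementary gene tables and 4 (*spp-1*, *spp-5*, *spp-6* and *spp-7*) by the consecutive numbering of the identifiers alone, which holds for *spp-2*, *spp-3*, *spp-4* and *spp-8* in those tables. Of the longest of these tables only a beginning was used, for names, and none of their values was used. Positions come from RefSeq, by name. The text names all members and all named *spp* genes, in each other list the genes called or, with none called, those with the largest and smallest log2 fold change, and the 3 genes closest to each called member. The report gives no values for most chromosomal neighbours of the members, and promoter and protein sequences were not analysed here. The fit was repeated without the filter, with the lowest 50% removed, with a trended robust prior, with 1 or 2 residual components (in place of surrogate variables), after median centring or quantile normalization, with array weights, with a replicate block, and with each array omitted in turn.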

Additional observations from a re-analysis of the deposited data

How the results depend on the processing

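*spp-8* kept its call in all 15 alternatives, and *spp-1*, *spp-2*, *spp-3*, *spp-4*, *spp-5* and *spp-7* were called in none. The number of members called, all upward, was 2 instead of 1 with the trend and robust prior, 1 or 2 residual components, median centring, quantile normalization, array weights and the replicate number as a block, the added gene being *spp-18* (adjusted p from limma 0.0270, 0.0160, 0.0222, 0.0392, 0.0485, 0.0457 and 0.0150); it was 1 in each fit with an array left out. *spp-23* was called with 1 residual component (adjusted p = 0.0176, limma) or 2 (adjusted p = 0.0274, limma). The residual components came from the residuals of the strain fit on these same arrays. They could not change a log2 fold change and only took up residual variation, so calls gained with them are no independent support. The log2 fold change of *spp-7* turned to 0.01 (0.0102) after quantile normalization and that of *spp-12* ranged from -0.26 to 0.71 as single arrays were omitted, with the negative value when wt replicate 1 was; the cause was not tested. Genes called over all genes tested numbered 211, with 328 for 1 and 411 for 2 residual components, and from 84 to 306 with an array left out. Omitting wt replicate 1 gave 94, omitting wt replicate 2 gave 84, and omitting the mutant's replicate 2 gave 122. The study, whose methods name surrogate variable analysis, listed more genes at the same threshold than the 211 called here. The lysozymes called numbered 1 instead of 0 with the trend and robust prior, 2 residual components, median centring, quantile normalization or array weights and from 0 to 1 with an array left out, the regulators from 0 to 1 and the other antimicrobial peptides from 6 to 12. Same-numbered arrays deviated together with correlations across genes of 0.06, 0.10 and 0.14, not all over 0.1, so the numbers were not taken as pairs, although each array correlated best with its own number; the replicate block moved the count of genes called to 246 and added *spp-18* among the members. Low averages limit *spp-6* and *spp-7*, and 3 arrays per strain limit every interval.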
